A study of Saccharomyces cerevisiae with 8 samples.

Results

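The untreated, growing wild type was described from 2 of the 8 libraries of the series, for all 6569 genes of the deposited table. Both libraries came from the budding yeast strain BY4741 (mating type a, labelled as carrying delta-0 alleles of his3, leu2, met15 and ura3), a haploid laboratory strain, grown at 30 °C in the rich glucose medium YPD to an optical density of 0.5, with no drug added. The 6 remaining libraries were of BY4741 treated with rapamycin at 30 °C and of the strains labelled prp4-1 and prp4-1_pGAL-IFH1. Those 2 strains were grown at 26 °C, with a single library each. They were used only to see whether genes listed at 0 or near it had signal elsewhere, and to check the marker AGA1. Poly(A) RNA was sequenced from strand-specific libraries, and values are the authors' scaled signal per gene. The columns carry library numbers 21 and 24, and pairs of values below are given in that order. The median signal over genes of up to 300 bases was 13.4, rose to 161 and fell to 69.5 in the longest class. Length classes hold different genes, so these medians cannot show whether length was already divided out. The signal was used as deposited, without division by length, and the shares below depend on this choice. Its lowest values, however, were mostly whole multiples of 1 smallest value whatever the gene's length, which a plain division of reads by length would not give. What the lowest values measure is therefore not known, and levels of very short and long genes are to be compared with care. In bulk RNA a level is an average over cells, so few cells with much of a transcript and many cells with little cannot be told apart.

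A yeast cell that divides quickly on glucose spends most of its transcription on making ribosomes and on fermenting sugar. Ribosomal proteins are encoded by many short genes, most of them present as a pair of copies left from an ancient duplication of the whole genome, and the same duplication left paired enzymes throughout central metabolism. Glucose represses the genes for other carbon sources, and the mating-type locus decides which mating genes are on.

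The scaled signal summed over all genes to 3306670 in library 21 and 3206360 in library 24. How many reads underlie a value is unknown, so no counting error is given and errors are SDs over the 2 libraries. Across the genes, log2 of signal plus 1 correlated between the libraries with Pearson's r of 0.995, which describes their likeness over genes that share a library and is no test. With 1 added to each value, the libraries were within 1.5-fold of each other for 98.9% of the 2817 genes with a mean of 100 to 1000. The share was 65.2% for the 313 genes with a mean above 0 but under 1. There the added 1 outweighs the signal, so this share overstates how alike the signals themselves were. The genes with the largest difference among those with a mean of at least 100 were mostly short: ATP19 (207 bases) at 119 and 290.3, YLR146W-A at 311 and 135, YKL018C-A at 77.8 and 178, snR31 at 165 and 80.9, YPR036W-A at 5256 and 2678, TIM11 at 254 and 498, RPS27B at 3593 and 1928, PRM7 at 348 and 186, snR41 at 137 and 73.6, and MBF1 at 1690.3 and 3049. Of these, PRM7, with 2097 exonic bases, was the longest. These genes were picked for their large differences, so they mark the extreme and not the usual spread between the 2 libraries.

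Of the marker loci in the labelled genotype, 3 were examined, and their values went with the labels. URA3 and MET17, both deleted in BY4741 (MET17 is the current name of MET15), were listed at 0 in both libraries, and LEU2 was listed at 0 and at 0.426. The a-specific genes, which make the mating pheromone of a cells and the receptor for the other sex, were present. MFA2 and MFA1, encoding a-factor, stood at 3347 and 1913 and at 821 and 1073. STE2, the receptor for alpha-factor, stood at 957 and 1058. These levels lay far above the 4 alpha-specific genes in each library. STE3, the receptor for a-factor in alpha cells, stood at 9.19 and 8.34, MF(ALPHA)1 at 3.25 and 5.02, MF(ALPHA)2 at 1.52 and 3.09, and SAG1, the alpha-agglutinin, at 31.98 and 35.1. Other genes of the a-specific list were intermediate. AGA2 stood at 290.4 and 209, the alpha-factor protease BAR1 at 211 and 251 and the a-factor exporter STE6 at 125 and 152. AGA1 stood at 55.7 and 42.8 and ASG7 at 7.18 and 6.19. In the prp4-1 and prp4-1_pGAL-IFH1 libraries AGA1 was higher, at 486 and 234, while STE2 was at 22.5 and 28.7. The alpha-specific STE3 was at 1008 and 1629 there. Strain, growth temperature and mating-type signal all differ from the untreated libraries, so the AGA1 difference is not credited to any of them. AGA1 is therefore not taken as a marker of a cells. ASG7 lay within the range of the alpha-specific list, and the other 7, AGA1 among them, lay above it in both untreated libraries. HO, the mating-type switching endonuclease, which the labels do not mention, stood at 163 and 197.

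Transcripts were concentrated in few genes. In all, 50% of the summed signal was reached by 145 genes in library 21 and 147 in library 24 (146 ± 1.41, SD, n = 2), and 90% by 1880 and 1927 genes. The 10 highest genes held 14.9% and 14.2%, and the 100 highest 43.1% and 42.6%. The median gene stood at 99.5 and 100.7, and the middle of the distribution was narrow, with 25% of genes below 31.4 and 32.5 and 75% below 269 and 262. From the 5th to the 95th percentile the signal ran from 0.381 to 1609 in library 21 and from 0.531 to 1514 in library 24.

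**Figure D1:**
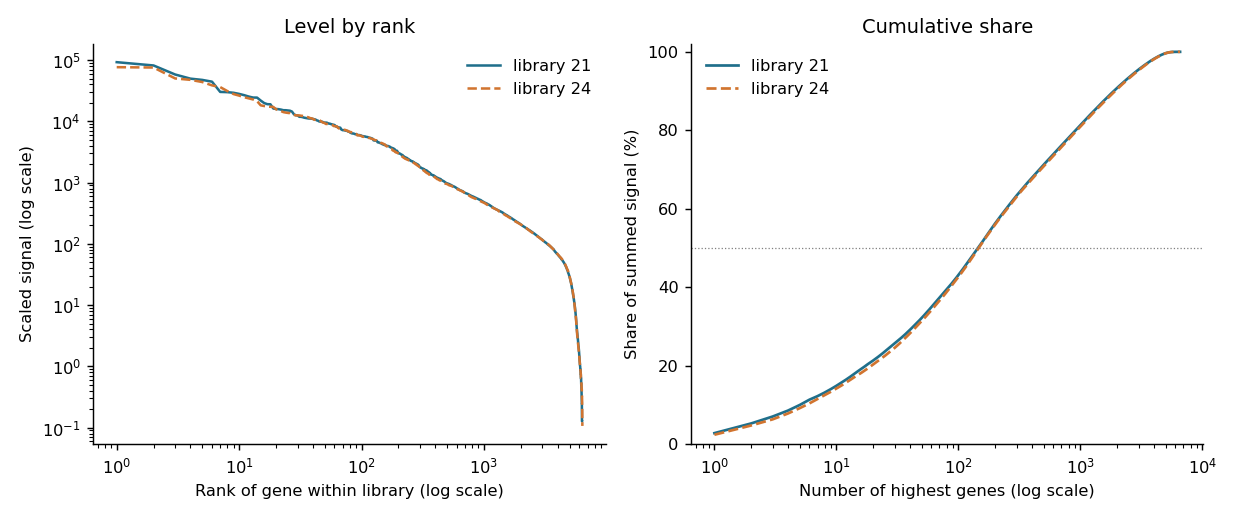
Left, scaled signal of each gene above 0 against its rank within library 21 (solid) or library 24 (dashed), both axes logarithmic. Right, the cumulative share of summed signal in percent against the number of highest genes, with the 50% line dotted; the curves cross it at 145 and 147 genes and lie almost on each other.

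The highest entry by mean was not a typical messenger RNA. YLR154C-G, at 92509 and 75609, is a reading frame of 150 bases at chrXII:462522-462671 that lies inside a 25S ribosomal RNA gene (460923 to 464318) and on its strand, so signal of the ribosomal RNA and of the frame cannot be told apart. TDH3, the major glyceraldehyde-3-phosphate dehydrogenase of glycolysis (chrVII:882812-883810), followed at 81721 and 76639, or 2.47% and 2.39% of all signal. CCW12, a cell wall mannoprotein of 402 bases (chrXII:369697-370098), stood at 58186 and 43809. Glycolysis filled the next places, with ENO2 (enolase) at 49808 and 50171, FBA1 (aldolase) at 47479 and 47592, and GPM1 (phosphoglycerate mutase) at 44429 and 38665. The order of TDH3 over CCW12 held in both libraries, whereas CCW12, ENO2 and FBA1 changed order between them. RPS31, a small-subunit protein made as a fusion with ubiquitin, came next at 30234 and 36242. ADH1, the fermentative alcohol dehydrogenase, stood at 29971 and 31238, and PDC1, the main pyruvate decarboxylase, at 29271 and 26290.2. YDR524C-B, a short reading frame, stood at 26742 and 27885.

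Ranks 11 to 25 were held by pyruvate kinase, elongation factor 1-alpha, a second dehydrogenase, phosphoglycerate kinase and ribosomal proteins. CDC19, pyruvate kinase, stood at 28049 and 23682, and the elongation factor 1-alpha genes TEF2 and TEF1 at 25359 and 24765 and at 24424 and 22750. TDH2 stood at 19892 and 15728 and PGK1, phosphoglycerate kinase, at 14434 and 14674. The others described here were ribosomal protein genes, from RPS15 at 21831 and 17382 down to RPL5 at 15196 and 14135. Between them lay RPS20 at 16190.1 and 18246, RPS22A at 18988 and 15238, RPS2 at 15933 and 17772, RPL41A at 15535 and 17308, RPL10 at 15067 and 17206, RPS26A at 19065 and 12829, and RPL8B at 15797 and 13753. Several changed places between the libraries, as RPS26A did over RPS20, so the order within this stretch is not firm. RPL41A, with 78 coding bases, is the shortest of them. Of the 100 highest genes, 64 encode ribosomal proteins.

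The promoter of TDH3, widely used by yeast geneticists for strong constitutive expression, is shown because its gene had the highest level of any messenger RNA outside the ribosomal RNA locus. It is the R64 sequence of the minus strand at chrVII:883911-884210, 300 bases that end 100 bases before the start codon, read 5′ to 3′ in the direction of transcription, with the motif TATAAA in capitals. TATAAA, searched on both strands, began 139 bases before the start codon.
TDH3: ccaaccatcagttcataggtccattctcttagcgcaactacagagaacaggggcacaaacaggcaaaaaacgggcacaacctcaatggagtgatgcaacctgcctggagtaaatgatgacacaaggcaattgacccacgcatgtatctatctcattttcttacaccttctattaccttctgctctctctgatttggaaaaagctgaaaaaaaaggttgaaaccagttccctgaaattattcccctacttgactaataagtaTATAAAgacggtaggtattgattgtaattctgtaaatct
Within 500 bases before the start codon, TATAAA was present on either strand in 60.2% of the 5860 promoters searched, and in 17 of the 21 genes of glycolysis and fermentation (81.0%). The windows are fixed in length and may reach into a neighbouring gene, and a match is no evidence of binding.

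Genes were grouped by function into 24 lists, which held 899 genes of the table and 64.6% and 64.8% of the signal. The large ribosomal subunit led, with 81 genes holding 16.4% and 17.1% (16.8 ± 0.503, SD, n = 2). The 56 small-subunit genes held 11.8% and 12.4% (12.1 ± 0.435). Together the 137 ribosomal protein genes held 28.2% and 29.5% of all signal. Glycolysis and fermentation followed, with only 21 genes holding 11.1% and 10.8% (10.95 ± 0.188). This order depends on how length is treated: with signal multiplied by exonic length, glycolysis and fermentation came first at 13.96%, before the large subunit at 9.80% and the small subunit at 6.95%.

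**Figure D2:**
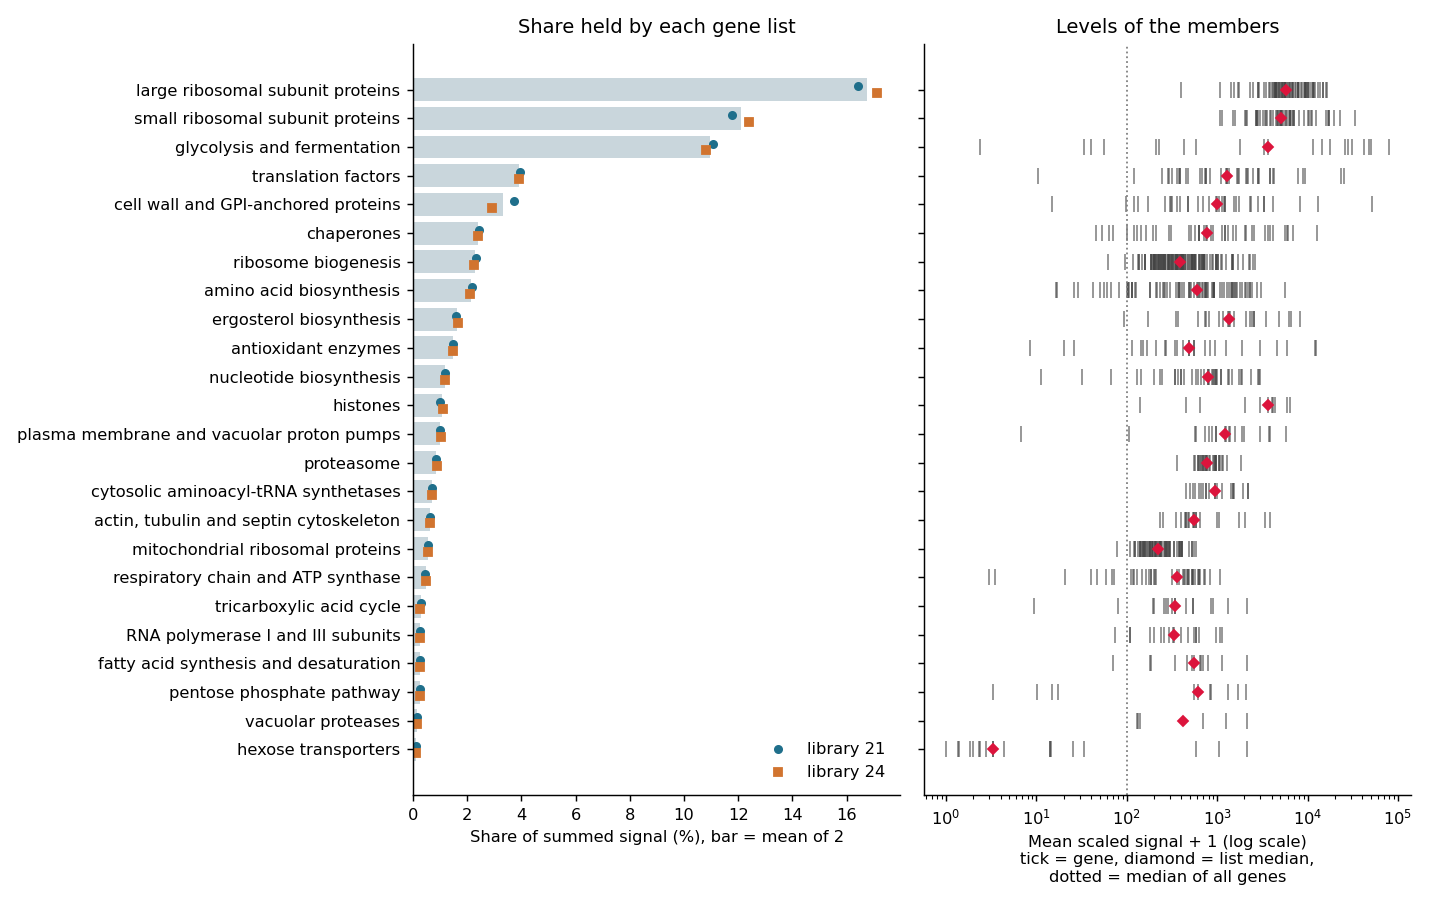
Left, share of summed signal in percent held by each of 24 lists of genes, with bars for the mean of the 2 libraries, circles for library 21 and squares for library 24. Right, mean scaled signal plus 1 of each member (ticks, log scale), the list's median (diamonds) and the median of all genes (dotted line); ribosomal proteins lie almost wholly to the right, while the glycolysis and hexose transporter lists span several decades.

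Ribosomal proteins, the structural proteins of the ribosome, were high throughout: all 137 lay above the median of all genes (100.2), and 80 of the 81 large-subunit and all 56 small-subunit genes reached a mean of 1000. In the large subunit the highest were RPL41A, RPL10 and RPL8B, and the lowest RPL15B at 405 and 384, followed by RPL22B at 1162 and 960.0. In the small subunit RPS31 and RPS15 were among the highest, and the lowest was RPS22B at 1115 and 1011. These lowest genes are the lesser copies of duplicated pairs. The 19 genes present in 1 copy had a median of 11846, the 118 duplicated genes 5209, and the summed copies of a duplicated protein 10973. The spread between proteins narrowed when copies were summed, from an SD of log2 signal of 0.99 over 137 genes to 0.71 over 78 proteins. Summing narrows such a spread even when copies are unrelated, so no balance between copies is read from it. Summed pairs ran from 4790.0 for RPS27 to 22008 for RPS26. The 97 ribosomal protein genes with introns had a median of 4911 and the 40 without 11027.

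A known route to ribosomal protein transcription is the factor Rap1, which binds their promoters. A strict form of its motif, ACACCC, any 2 bases and ACA, on either strand within 500 bases before the start codon, occurred in 19 of 137 ribosomal protein promoters (13.9%) and in 55 of all 5860 (0.939%). Windows of 30 bases are shown for the 3 highest and the 2 lowest genes with a match, with the motif in capitals in the gene's direction. RPL33A (chrXVI:281757-281786, plus strand), RPS10A (chrXV:866749-866778, plus), RPL42B (chrVIII:383093-383122, minus), RPL36A (chrXIII:650972-651001, plus) and RPL22B (chrVI:65159-65188, minus) were matched.
RPL33A: tacctctttACACCCTTACActtcctttga
RPS10A: ttctgggttTGTATGGGTGTtacaccggtt
RPL42B: acatccgatACACCCATACAtcatgaaaat
RPL36A: gactgttttACACCCGTACAtttcacagtt
RPL22B: tccatgtcaACACCCGTACAtattcagaga
RPS10A carries it in reverse. The median level of the 19 genes with the motif was 4719 and that of the others 5789, so holding these letters did not go with a higher level within the list.

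Glycolysis and fermentation was at once among the highest and the most uneven lists. Of its 21 genes, 13 reached a mean of 1000, and TDH3 alone held 22.2% of the list. The lowest were PYK2, the minor pyruvate kinase, at 43.3 and 35.8, PDC5 at 33.6 and 32.1, and PDC6, a decarboxylase known to be induced by sulfur shortage, at 1.57 and 1.15. The highest member was 58050 times the lowest by mean. Sugar entry was far lower in signal: the 19 hexose transporter and sensor genes held 0.126% and 0.111%. HXT3, a low-affinity transporter, stood at 2255 and 1991, HXT2 at 1164 and 908 and HXT1 at 632 and 535. No other member of the list reached the median of all genes, the next being the glucose sensors RGT2 at 28.9 and 36.02 and SNF3 at 25.4 and 23.8. The high-affinity transporters HXT6 and HXT7, known to be repressed by high glucose, stood at 13.6 and 13.1 and at 12.6 and 13.6, and HXT16 was listed at 0 in both.

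The pentose phosphate pathway, which makes NADPH and ribose, held 0.246% and 0.245%. TAL1 stood at 2037 and 2139, GND1 at 1751 and 1639.6 and TKL1 at 1345 and 1296, while the lesser copy TKL2 stood at 2.50 and 2.09. Respiration was lower still for its size: the 43 genes of the respiratory chain and ATP synthase held 0.452% and 0.469%. ATP15, ATP18 and ATP16, subunits of the ATP synthase, were its highest at 1162 and 958, 848 and 796, and 752 and 706. CYB2, a lactate dehydrogenase of mitochondria, was its lowest at 2.07 and 1.90. The tricarboxylic acid cycle held 0.277% and 0.275%, led by PDA1 at 2188 and 2067, PDB1 at 1325 and 1312 and LPD1 at 935 and 840, subunits of pyruvate dehydrogenase. Its lowest was CIT3 at 8.41 and 8.29. The 72 genes listed as mitochondrial ribosomal proteins held 0.547% and 0.554%, with a median of 218 and no member at a mean of 1000. MRPL39 was the highest at 609.9 and 537.1, then MRP8 at 628.3 and 483.7 and MRP10 at 594.5 and 454.6. The place of MRP8 on the list rests on its name only. RSM22 was the lowest at 69.6 and 82.4.

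Translation factors held 3.94% and 3.89%, led by TEF2, TEF1 and STM1, a ribosome-associated protein, at 9201 and 9499. Elongation factor 3 showed the lowest member, its minor copy HEF3 at 9.46 and 9.43. The 21 cytosolic aminoacyl-tRNA synthetases, which charge tRNAs, held 0.701% and 0.687% and lay close together, from SES1 at 2117 and 2282, KRS1 at 2296 and 2051 and DED81 at 2001 and 1839.6 down to ALA1 at 461 and 430.3. Chaperones held 2.44% and 2.39%. The cyclophilin CPR1 stood at 12494 and 12722, the Hsp70 SSA2 at 7277 and 6629, and EGD2 of the nascent chain complex at 6323 and 5915. Lowest was SSE2 at 47.4 and 42.2.

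Cell wall and GPI-anchored proteins held 3.71% in library 21 and 2.93% in library 24 (3.32 ± 0.554, SD, n = 2), the largest SD of any function list. CCW12, TIR1 at 15185 and 10579 and CWP2 at 9556 and 6801 were its highest, and PIR3 at 14.5 and 13.5 its lowest. In 29 of the 35 genes library 21 was higher, against 3161 of all 6569 genes. CCW12 alone held 47.0% of the list, so the share rests largely on that gene.

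Among the lists for lipid and small-molecule synthesis, the 24 ergosterol genes held 1.597% and 1.64%, led by ERG3 at 8183 and 8258, ERG2 at 6253 and 6672 and ERG25 at 6206 and 6368, enzymes of late steps, with HMG2 lowest at 95.4 and 88.2. Fatty acid synthesis held 0.252% and 0.260%, with the acyl-CoA binding protein ACB1 at 2059.5 and 2193, the elongases' SUR4 at 1157 and 1126, TSC13 at 793 and 797, and ELO1 lowest at 62.7 and 74.8. Amino acid synthesis held 2.17% and 2.09% over 83 genes, led by the branched-chain enzymes ILV5 at 5711 and 5447 and BAT1 at 3324 and 2725 and by HIS1 at 2995 and 2535, with MET2 lowest at 13.5 and 17.1. Nucleotide synthesis held 1.18% and 1.17%, led by URA1 at 2864 and 3087, the adenylate kinase ADK1 at 3027 and 2830.5 and RNR4 of ribonucleotide reductase at 3091 and 2575, with RNR3, its damage-inducible subunit, lowest at 11.2 and 9.01. Antioxidant enzymes held 1.49% and 1.46%, with the peroxiredoxins TSA1 at 12584 and 11999.6 and AHP1 at 13040 and 11202 and the superoxide dismutase SOD1 at 6500.1 and 5360.1. CTA1, the peroxisomal catalase, was lowest at 8.67 and 6.47.

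Gcn4 is the activator of amino acid synthesis genes. Its core motif TGACTC, on either strand within 500 bases, occurred in 51 of the 83 amino acid synthesis promoters (61.4%), in 10 of 21 tRNA synthetase promoters (47.6%) and in 12.8% of all. The sites of the 3 highest amino acid genes with a match are shown, from ILV5 (chrXII:839376-839405, minus strand), BAT1 (chrVIII:517349-517378, plus) and HIS1 (chrV:265951-265980, minus), with the motif in capitals.
ILV5: gatgacctaactTGACTCaatggcttttac
BAT1: attgccttcttaTGACTCaaaattctattg
HIS1: aagcttccaagtGAGTCAcctctaccgttg
HIS1 carries it in reverse. Median levels of list members with and without the motif were 602 and 552, close to each other beside the spread of the list.

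Core histones were among the highest genes outside translation and glycolysis, and the 11 histone genes held 1.01% and 1.12%. The H4 genes HHF2 and HHF1 stood at 6065 and 6778 and at 5962 and 5837, and HTB1 for H2B at 4321 and 4417. CSE4, the histone variant of centromeres, was the lowest at 138 and 139. Poly(A) selection was used, so these values cover polyadenylated histone RNA, which in yeast is the usual form. Proton pumps of the plasma membrane and vacuole held 0.982% and 1.02%, with PMP1, a small regulator of the plasma membrane pump, at 5666 and 5919, VMA3 at 3706 and 3924 and PMP3 at 4366 and 3188, and PMA2 lowest at 5.29 and 6.09. In the cytoskeleton list (0.610% and 0.620%) actin, ACT1, stood at 3749.5 and 3967, TPM1 at 3690.2 and 3109.6, COF1 at 1765 and 2246 and TWF1 at 247 and 220.2. Vacuolar proteases held 0.140% and 0.135%, with APE3 at 2239.8 and 2037, PEP4 at 1286 and 1202, PRC1 at 695 and 708, and LAP4 lowest at 129 and 130.03.

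The proteasome, which degrades ubiquitin-marked proteins, was the most uniform list by SD of log2 signal plus 1 (0.43 over 33 genes, against 2.87 over all genes). It held 0.839% and 0.879%. SEM1 was highest at 1719 and 1963, then PRE6 at 1282 and 1264 and PRE9 at 1082 and 1213, and RPN1 lowest at 359.6 and 358. Shorter genes stood higher: within the list, log2 signal changed by -0.56 per doubling of exonic length. The change was -0.66 among 72 genes listed as mitochondrial ribosomal proteins, -0.74 among 141 ribosome biogenesis genes and -1.01 among 21 tRNA synthetases. The slope was smaller among 13 genes of the vacuolar proton pump, at -0.24, and was 0.02 across all 6096 genes whose mean reached 1. The cause was not tested. The element GGTGGCAAA, bound by the proteasome activator Rpn4, occurred on either strand in 27 of the 33 promoters (81.8%) and in 96 of all 5860 (1.64%). Sites of the 3 highest and 2 lowest genes with a match are shown with the element in capitals, from PRE6 (chrXV:255218-255247, plus strand), PRE9 (chrVII:761223-761252, plus), PRE1 (chrV:177683-177712, plus), RPN2 (chrIX:220800-220829, minus) and RPN1 (chrVIII:164837-164866, minus).
PRE6: cgaagattctTTTGCCACCggaagggaaag
PRE9: ttaccctgcaGGTGGCAAAaaatttataga
PRE1: aaatctttacGGTGGCAAAaaataaagaaa
RPN2: atttattttcGGTGGCAAAactggatacat
RPN1: tgtgttttacGGTGGCAAAaggcgagcacg
PRE6 carries it in reverse. The 6 genes without a match were PRE5, PUP1, RPN10, RPN13, RPN8 and SEM1, and SEM1, the highest gene of the list, was among them.

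Ribosome biogenesis, the making of ribosomal RNA and its assembly, was spread over many genes of moderate level. Its 141 genes held 2.34% and 2.24%, with a median of 384, and 139 of them lay above the median of all genes. NOP1, the methylase fibrillarin, stood at 2876 and 2382, NHP2 at 2514 and 2402 and NOP10 at 2513 and 2084.5, all proteins of the small nucleolar particles, and UTP20 was lowest at 63.4 and 57.7. RNA polymerase I and III subunits held 0.261% and 0.259%, led by the shared subunit RPC40 at 1055 and 1190.1, RPA34 at 1173 and 960 and the shared RPC19 at 970.1 and 986, with RPO31 lowest at 72.0 and 72.7. Both lists shared a pair of promoter elements. The element PAC (GATGAG) occurred in 123 of 141 biogenesis promoters (87.2%), in 17 of 19 polymerase promoters (89.5%) and in 28.2% of all. The element RRPE (AAAAATTT) occurred in 120 (85.1%), in 15 (78.9%) and in 20.7%. Both together occurred in 104 biogenesis promoters (73.8%) and in 504 of all (8.60%). RRPE was also present in 18 of 21 tRNA synthetase promoters (85.7%) and in 31 of 42 translation factor promoters (73.8%), where PAC was at 38.1% and 33.3%. The NOP1 promoter, as the highest gene of the list, is shown for both elements, 300 bases that end 100 bases before the start codon on the plus strand at chrIV:426964-427263, with PAC and RRPE on either strand in capitals. Its PAC lies 204 to 199 bases before the start codon, in reverse, and RRPE matches lie at 245 to 238 and, overlapping on both strands, at 226 to 217.
NOP1: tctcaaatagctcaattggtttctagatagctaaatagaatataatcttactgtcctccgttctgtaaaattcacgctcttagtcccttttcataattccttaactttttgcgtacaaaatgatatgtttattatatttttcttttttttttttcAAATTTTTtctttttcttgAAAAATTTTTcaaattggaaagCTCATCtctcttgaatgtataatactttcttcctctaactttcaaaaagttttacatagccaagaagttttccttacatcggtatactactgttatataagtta
Of the biogenesis genes, those with PAC had a median of 392 and those without 334.

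Outside all function lists the highest genes were YLR154C-G and YDR524C-B, named above, and TMA19, a ribosome-associated protein, at 9512 and 10617. RHR2, which makes glycerol from its phosphate, stood at 8858 and 8691, and ASC1, a protein of the small ribosomal subunit that carries an intron, at 5739 and 6172. GSP1, the GTPase of nuclear transport, stood at 5726 and 5484. Also in this set were ZEO1 at 5257 and 5920.3, the flavohaemoglobin YHB1 at 5371 and 5586, YMR122W-A at 4859 and 5386, and VTC1, of polyphosphate synthesis, at 4882 and 5357.

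Codon use went with level. The effective number of codons runs from 20, a single codon per amino acid, to 61 for even use, and it was computed for 5561 coding sequences of at least 300 bases. The 50 highest genes had a median of 27.1, the next 150 of 30.01, the next 300 of 42.9 and the next 1000 of 49.5. Below that it was flat, at 52.1 for the next 1500 and 52.4 for the last 2561. Across genes, Spearman's rho of codon number and signal was -0.36, a description over genes that share the libraries. The exceptions went both ways. VMA4, a subunit of the vacuolar pump, had 54.3 with a signal of 2996 and 2977, and VTC1 had 53.2 with 4882 and 5357, although both ranked in the 200 highest. On the other side, several seripauperin genes and HSP12, a stress protein, were biased but low: PAU20 had 26.7 with 1.19 and 3.09, and HSP12 27.5 with 32.8 and 37.4.

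**Figure D3:**
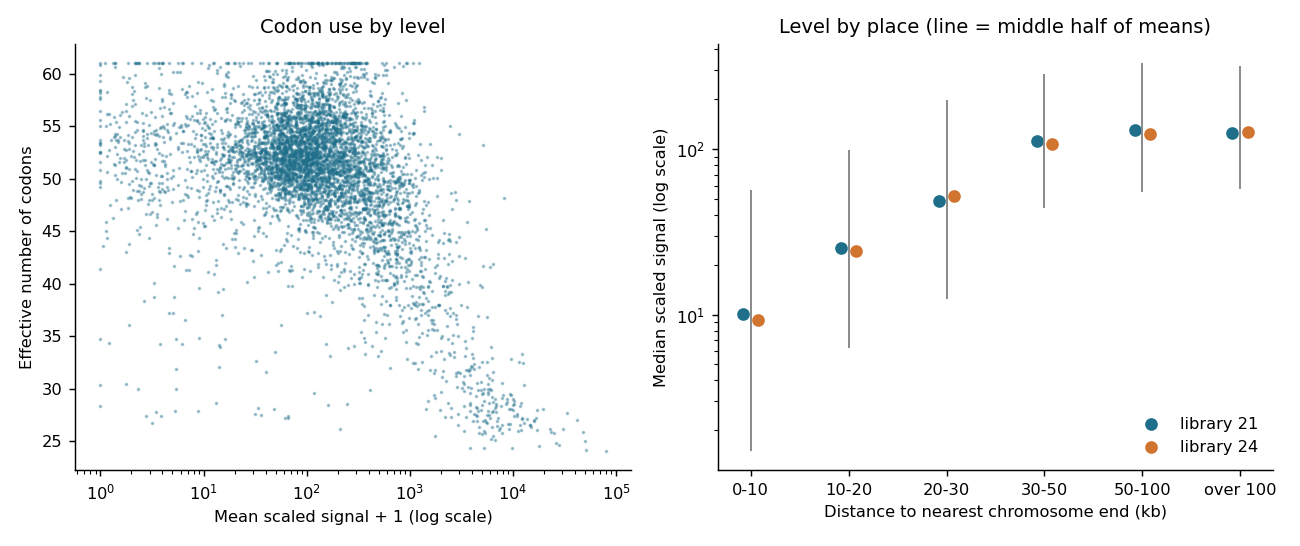
Left, the effective number of codons of 5561 coding sequences against mean scaled signal plus 1 (log scale); the number falls from about the low 50s to a median of 27.1 in the 50 highest genes. Right, median scaled signal (log scale) of genes by distance to the nearest chromosome end in kb, circles for each library and lines from the lower to the upper quartile of genes' means; the medians of libraries 21 and 24 rise from 10.1 and 9.23 within 10 kb to 124 and 126 beyond 100 kb.

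Duplicated genes were compared in 197 pairs with both copies in the table, after 5 of the 202 listed pairs were not analysed here. In 69 pairs 1 copy was at least 3 times the other in both libraries, in 51 pairs the copies were within 1.5-fold in both, and in 188 the same copy was higher in both. The median pair gave 70.6% and 67.7% of its signal from the higher copy. Copy dominance differed by class. It held in 15 of 27 pairs of central carbon metabolism, in 10 of 16 of membrane and cell wall and in 5 of 5 mitochondrial pairs, but in 10 of 59 ribosomal protein pairs and in none of 6 chromatin pairs. These are counts on a list of pairs and were not tested against each other. The classes also differ in likeness of sequence. Median identity was 93.2% in ribosomal protein pairs and 90.5% in chromatin pairs. It was 69.3% in central carbon metabolism, 66.2% in membrane and cell wall and 65.5% in mitochondrial pairs. Low identity did not go with frequent dominance in every class. Signalling and cell cycle pairs, at a median identity of 61.9%, had 8 of 26 past 3 in both libraries. Cytoskeleton and traffic pairs, at 60.1%, had 6 of 15. The part of sequence likeness in the class counts was not tested.

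**Figure D4:**
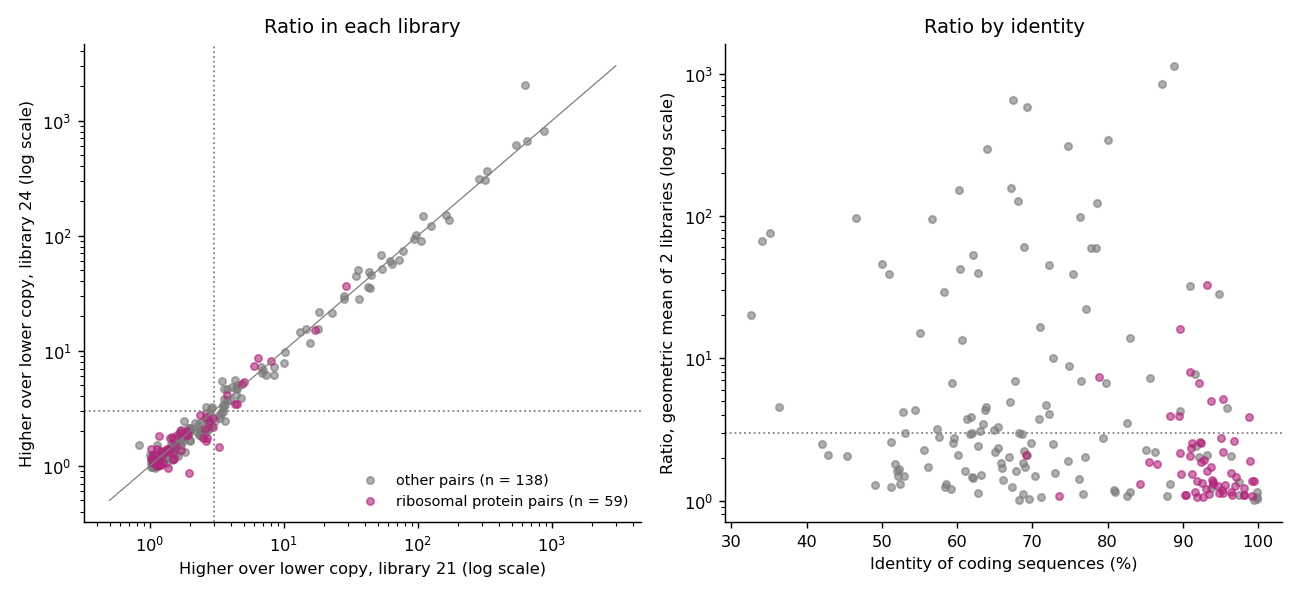
Left, ratio of the higher to the lower copy of 197 pairs in library 24 against library 21, both axes logarithmic, with the line of equality and dotted lines at 3. Right, the geometric mean ratio of both libraries (log scale) against identity of the coding sequences in percent, with ribosomal protein pairs in magenta and others in grey; pairs of at least 95% identity have a median ratio of 1.27.

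The largest ratios were in fermentation and sugar metabolism. ADH1 exceeded ADH2, the glucose-repressed dehydrogenase that consumes ethanol, by 627 times and 2053 times, with ADH2 at 47.8 and 15.2. PDC1 exceeded PDC5 by 871 and 820 times, CDC19 exceeded PYK2 by 648 and 661 times, and TKL1 exceeded TKL2 by 538 and 620 times. The ADH2 values differ between libraries more than the other low copies do, and its ratio is the least certain of these. PMA1, the plasma membrane proton pump, exceeded PMA2 by 325 and 364 times, and YEF3, elongation factor 3, exceeded HEF3 by 315 and 305 times. UTH1 exceeded NCA3 by 283 and 311 times, the glucanase EXG1 exceeded SPR1, known from sporulation, by 163 and 152 times, EGD1 exceeded BTT1 by 169 and 138 times, and TAL1 exceeded NQM1 by 109.8 and 149 times.

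Other glycolytic pairs were less uneven. HXK2 exceeded HXK1 by 63.99 and 56.2 times, and ENO2 exceeded ENO1 by 28.2 and 28.2 times, with ENO1 at 1764 and 1779.8. TDH3 exceeded TDH2 by 4.11 and 4.87 times at 95.8% identity. The glucokinase GLK1 and its copy EMI2 stood at 225 and 228 against 131 and 132, a ratio of 1.72 and 1.73. The enzymes of fructose-2,6-bisphosphate PFK27 and PFK26 stood at 176 and 184 against 39.1 and 39.6. RHR2 exceeded HOR2 by 13.2 and 14.4 times.

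Translation factor copies fell into 2 kinds. TEF2 and TEF1 (ratio 1.04 and 1.09, coding sequences 99.85% identical), EFT2 and EFT1 for elongation factor 2 (1.13 and 1.15, 99.84%) and TIF2 and TIF1 for eIF4A (1.03 and 0.98, 99.49%) were near equal. Their sequences are so alike that reads from both copies cannot be told apart, and how such reads were shared out is not stated. HYP2 for eIF5A, by contrast, exceeded ANB1, known as its copy for low oxygen, by 36.5 and 28.1 times at 90.9% identity, and TIF4631 exceeded TIF4632 by 3.60 and 3.83 times.

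Among ribosomal proteins, RPL15A led RPL15B by 29.3 and 36.2 times and RPS22A led RPS22B by 17.03 and 15.1 times. RPS9B led RPS9A by 7.98 and 8.10 times, RPL22A led RPL22B by 6.38 and 8.60 times, and RPS14A led RPS14B by 5.99 and 7.40 times. Also past 3 were RPL9A, RPS28A, RPL36B and RPL41A over their copies, with geometric means from 3.85 to 4.99. The A copy was higher in 36 pairs and the B copy in 23, by mean. In 26 of the 59 pairs the copies were within 1.5-fold in both libraries. RPL41A and RPL41B are 98.7% identical, so their ratio of 4.33 and 3.42 is uncertain.

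Histone copies were near equal except for H3. HHT2 exceeded HHT1 by 2.34 and 1.84 times, HTA1 exceeded HTA2 by 1.24 and 1.22 times, HTB1 and HTB2 were at 1.16 and 1.02, and HHF2 and HHF1 at 1.02 and 1.16. The nearest to equal of all pairs were TIF2 and TIF1, the ceramide synthases LAC1 and LAG1 at 1.02 and 0.98, HXT6 and HXT7 at 1.08 and 0.96, the citrate synthases CIT2 and CIT1 at 1.11 and 1.00, the oxysterol-binding KES1 and HES1 at 1.02 and 1.05, RPL34A and RPL34B at 1.05 and 1.07, RPS1B and RPS1A at 1.13 and 0.99, TEF2 and TEF1, IMD4 and IMD3 at 1.14 and 1.00, and RPS6A and RPS6B at 1.10 and 1.04. LAC1 and LAG1 (68.2% identical) and KES1 and HES1 (69.5%) are distant enough in sequence for their reads to be assigned, unlike HXT6 and HXT7 (99.8%).

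Ratios were smallest in the most alike pairs, without a steady trend below that. The median ratio was 2.66 below 70% identity (84 pairs), 6.73 from 70% to 80% (27 pairs), 2.19 from 80% to 90% (23 pairs), 1.73 from 90% to 95% (35 pairs) and 1.27 above (28 pairs). Past 3 in both libraries were 32, 17, 10, 7 and 3 pairs in that order. How reads were shared between near-identical copies is not stated, and its part in the ratios was not tested.

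At the other end, 160 genes were listed at 0 in both libraries, and 408 were under 1 in both. Most are not established genes. Of the 160, 116 are not in the R64 annotation by name and 44 are protein-coding there, which is 18.4% of the 631 unmatched names and 0.751% of the 5862 protein-coding genes. Of the 408, 127 are protein-coding, or 2.17%. In the 6 other libraries 34 of the 160 were also listed at 0 throughout, while 47 reached 1 in at least 1 of them, so those rows can hold signal. Among standard-named protein-coding genes 43 were under 1 in both, and 10 were listed at 0: AHT1, APQ13, CDA2, CSM4, ECM23, HXT16, MER1, MET17, PAU19 and URA3. CDA2, CSM4 and MER1 have roles in sporulation or meiosis, and URA3 and MET17 are the deleted loci.

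Signal from the opposite strand was low. For 233 unmatched frames that lie at least 50% inside a protein-coding gene of signal 100 or more on the opposite strand, the frame held a median of 0.179% of its host's signal, and 190 of the 233 held under 1%. BUD19, for example, stood at a mean of 0.349 opposite RPL39 at 1525. The highest was YLR317W at 51.9 opposite TAD3 at 106.

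Gene lists for conditions other than growth on glucose were mostly low, with medians under the 100.2 of all genes. The 57 meiosis and sporulation genes had a median of 5.07, with SPR6 at 207 and 200.4, GSC2, a glucan synthase with a known role in spores, at 102.1 and 90.52, REC107 at 106 and 73.5, and CDA2, CSM4 and MER1 at 0. The 22 glucose-repressed genes had a median of 9.47, led by MDH2 at 411 and 375, ATO3 at 313 and 352 and the invertase SUC2 at 156 and 134, while the gluconeogenic FBP1 stood at 1.16 and 1.18. Of the galactose genes, GAL80, the repressor, stood at 239 and 207, GAL1 at 12.8 and 13.9 and GAL4 at 13.2 and 9.43. Maltose genes reached 41.96 and 38.64 at most, in MAL33, followed by MAL13 at 26.96 and 30.82 and MAL31 at 20.5 and 13.6. The flocculins, cell surface adhesins, were led by FLO5 at 21.6 and 14.6, FLO9 at 7.72 and 5.22 and FLO10 at 6.50 and 5.97.

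**Figure D5:**
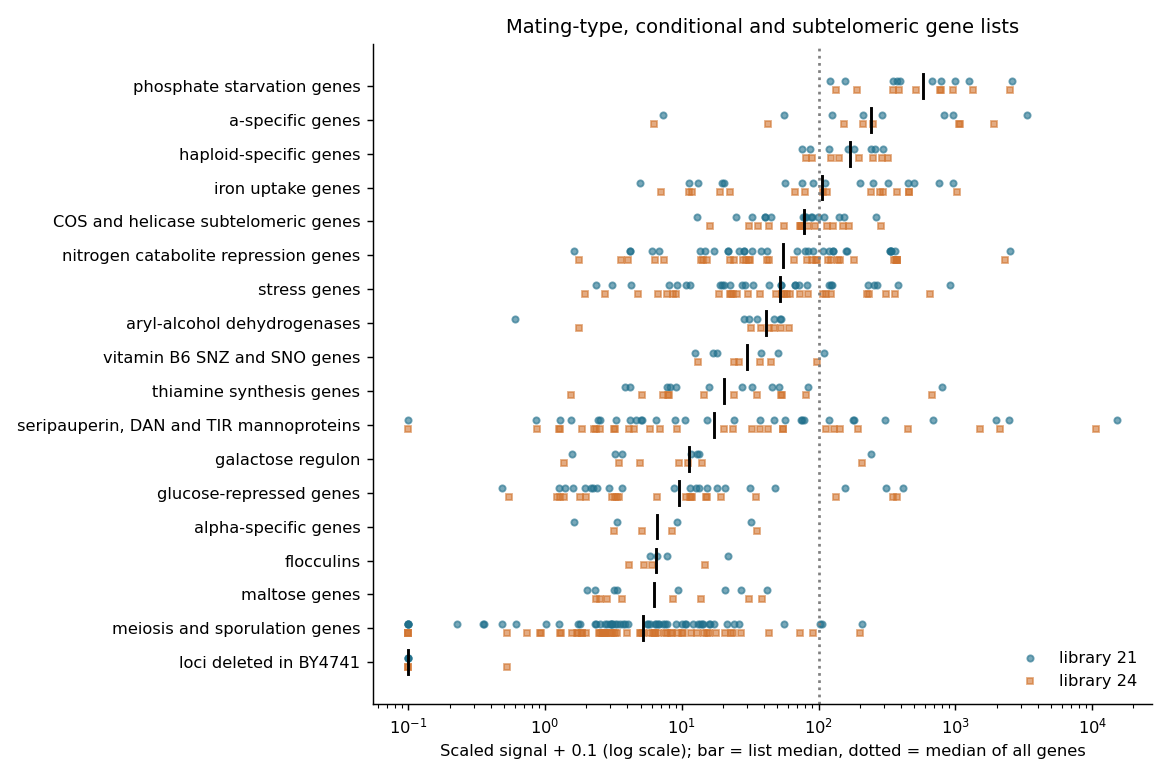
Scaled signal plus 0.1 (log scale) of every member of 18 lists of mating-type, conditional and subtelomeric genes, with circles for library 21, squares for library 24, bars for the list's median and the median of all genes dotted. Deleted loci lie at the left edge, and phosphate starvation, a-specific, haploid-specific and iron uptake genes have medians above the dotted line.

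Some conditional genes were high. The anaerobic and cold-shock cell wall protein TIR1 stood at 15185 and 10579, rank 27 of all, DAN1, known as an anaerobic gene, at 2450.2 and 2110, and TIR3 at 1966 and 1525. These 3 belong to a list of 30 seripauperin, DAN and TIR genes whose median, with them included, was 17.1, and PAU19 on it was listed at 0. The letters TCGTATA, the core of a sterol response element, occurred in 12 of these 30 promoters and in 6.96% of all, and TATAAA in 28 (93.3%). Several PAU genes on the list are near-copies of each other, so the promoters need not be separate observations and each copy's level is uncertain. Phosphate starvation genes were all above the median of all genes, with PHO84, the high-affinity phosphate transporter, at 2575 and 2523, and the acid phosphatases PHO12 at 1253 and 1335 and PHO11 at 1000.7 and 956. Among iron uptake genes the permease FTR1 stood at 956 and 1034, FIT2 at 764 and 456 and the oxidase FET3 at 497 and 457. Of nitrogen genes, glutamine synthetase GLN1 stood at 2522.5 and 2321, the arginase CAR1 at 362.5 and 373 and ASP3-1 at 336 and 373; the 4 ASP3 copies are near-identical, so each copy's level is uncertain. PHO3, a thiamine-regulated phosphatase, stood at 798 and 671 on a list with a median of 20.3, followed by THI6 at 83.5 and 81.1 and THI7 at 51.5 and 52.6. Stress genes had a median of 52.1, with PNC1 at 907 and 657, TPS1 at 378 and 360 and HSP104 at 267 and 312. The remaining lists were led by SNZ1 at 109 and 96.5, SNZ2 at 50.01 and 44.8 and SNZ3 at 37.81 and 36.95 for vitamin B6, by AAD3 at 52.3 and 60.4, AAD16 at 52.9 and 52.8 and AAD4 at 46.7 and 43.2 for aryl-alcohol dehydrogenases, by COS6 at 265 and 286, COS3 at 152 and 166 and COS2 at 141 and 150.3 among subtelomeric genes, and by STE4, GPA1 and RME1 among haploid-specific genes at 296 and 319, 257.5 and 290.4, and 242 and 251.

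Genes near chromosome ends were lower. Among R64 protein-coding genes the median was 10.7 within 10 kb of an end (104 genes), 24.7 from 10 to 20 kb, 53.5 from 20 to 30 kb and 110.4 from 30 to 50 kb, and 126 beyond 100 kb (4410 genes). Under 1 in both libraries were 19.2% of the genes within 10 kb and 1.70% beyond 100 kb. Of the genes within 20 kb of an end, 3 had a mean of 1000 or more: ERG13, HMG-CoA synthase of the sterol pathway, at 1594 and 1504, PHO12 at 1253 and 1335, and CHA1, which breaks down serine and threonine, at 1227 and 1324. Genes with introns, 279 in all, held 16.95% and 17.8% of the signal, of which the 182 outside the ribosomal proteins held 2.31% and 2.40%. Ty reading frames, from mobile elements, held 0.383% and 0.348% over 49 rows whose sequences are near-copies of each other, and small nucleolar RNAs, which mostly lack a poly(A) tail, 0.0848% and 0.0657% over 68.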

How the data were processed

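Poly(A) RNA of 2 untreated BY4741 libraries was analysed, as labelled by title, in the table of all 6569 genes. Per the submitters' processing notes, TopHat, Bowtie and the sacCer3 build were used, with versions not given in the sources used here. The authors deposited scaled signal, which is unscaled signal divided by a constant per library. How reads were summarised per gene is not stated. The 8 unscaled columns and 3 averages were not used. The deposited gene models (other: exon coordinates, per the file contents) gave exonic lengths, and 97.1% of 5938 names matched to R64 had identical coordinates. Among values up to 5 of the smallest steps, 77.6% and 72.1% were whole multiples of the smallest within 0.1%, whatever the gene's length.

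Levels, shares of summed signal and ratios were computed per library, with mean ± SD, in Python 3.11.15 (pandas 2.3.3). Coding sequences of pairs were aligned globally with Biopython 1.88. Promoter motifs were searched in the 500 bases before the start codon on both strands. No test was made, because only 1 condition is described. The rules for sums and pair calls were tried on simulated data in a separate calculation, which does not check how the reported values were computed. Genes were named by rule: the 25 highest, the 3 highest and the lowest of each function list, the strain and mating-type markers analysed, the 3 highest and zero members of the other lists, the 10 highest outside lists, the pairs with the 10 largest and 10 smallest ratios, all glycolytic, translation factor and histone pairs, and the 10 largest library differences. The members, lists and pairs were chosen with earlier results of these data known. Members under names that were not in the table were not analysed here. A few genes that the rule names are not reported here. Sequences are RefSeq R64.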

Additional observations from a re-analysis of the deposited data

How the results depend on the processing

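Multiplying or dividing the signal by length moved the shares most. With signal multiplied by exonic length, 50% of the sum was reached by 253 genes, and with signal divided by length by 82.5 on average. The large subunit then held 9.80% and 23.1%, the small subunit 6.95% and 14.2%, and glycolysis and fermentation 13.96% and 5.46%, so that this list passed both subunits under multiplication. The share of glycolysis and fermentation was 12.1% over genes of at least 300 bases and 11.2% without YLR154C-G. Multiplying or dividing by length and the removal of YLR154C-G were chosen after seeing the data. Leaving out a library left 50% of the sum at 145 to 147 genes, the large subunit at 16.4% to 17.1%, the small subunit at 11.8% to 12.4%, and glycolysis and fermentation at 10.8% to 11.1%. Of the genes listed at 0, 12 have a standard name, and a single library lists 220 to 261. Under 0.5 in both libraries lay 253 genes, under 1 per 1000000 of the sum 744, and under 1 in a single library 477 to 491. Ribosomal protein pairs past a ratio of 2 numbered 16 and past 5 numbered 6, and with a library left out 10 to 11 were past 3. All pairs past 3 numbered 72 to 76 in a single library. The other settings tried kept counts within 1.5 times and shares within 1 SD. The setting with signal not divided by length equals the values reported, and the whole span was not used because no length enters them. No paired analysis was possible because a single condition is described and the columns carry no replicate number. Depth is unknown, which limits the lowest values most.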
